A study of Mus musculus with 12 samples.

Results

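The retinal pigment epithelium is a single layer of pigmented cells that lies against the photoreceptors, outside the neural retina. It regenerates the visual chromophore, carries nutrients and ions between the choroid and the photoreceptors, and holds melanin in melanosomes. Melanin is also made by melanocytes of the choroid and iris, which arise from the neural crest, so the melanin genes are shared by both cell types whereas the visual cycle genes belong mainly to the epithelium. A retina that is dissected for RNA can carry fragments of these neighbouring layers. The genes described here, 10 of the 50559 genes in the count table, were chosen by symbol and were measured in every library. Of these, 5, namely Rpe65, Lrat, Rgr, Ttr and Best1, serve the visual cycle or other functions of the pigment epithelium, and the other 5, namely Tyr, Tyrp1, Dct, Pmel and Mlana, serve melanin synthesis and the melanosome.

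Retinas of wild-type C57BL6/J mice were collected at postnatal day 28 and sequenced in 4 groups of 3 libraries. All pups received 30 µg of antibody on postnatal day 1, which was either a control immunoglobulin (IgG) or APB5, a rat monoclonal antibody against the receptor PDGFRB that depletes the growing retinal vessels of pericytes. In the IgG+Mino and APB5+Mino groups, minocycline, a tetracycline antibiotic that also dampens microglial activation, was injected daily at 45 mg/kg from day 5 to day 27. The study's legend gives as many mice as libraries in each group, so p-values measure the spread between animals.

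Total counts lay between 52740545 and 59411044 per library, and levels are given as CPM, a gene's count relative to the library total after scaling by TMM factors, which equalise the bulk of the genes between libraries. APB5 replicate 3 stood apart from the rest. Its rod photoreceptor genes summed to 12266 CPM against 46414 to 70281 CPM in the other 11 libraries, its microglia and macrophage genes to 394 CPM against 12.2 to 49.5 CPM, and its choroid and sclera stroma genes to 840 CPM against 24.7 to 169 CPM. Its Müller glia genes summed to 2909 CPM, within the range of the others, from 2707 to 3808 CPM, but this sum hid opposite differences. Vim, at 638 CPM, and Slc1a3, at 229 CPM, were above the other 11 libraries, which reached 198 and 203 CPM. Glul, at 1570 CPM, and Kcnj10, at 54.2 CPM, were below the others, whose lowest values were 1995 and 57.4 CPM. Rlbp1 and Aqp4 were within the range of the others. Xist, which is transcribed from the inactive X chromosome of females, exceeded 1000 counts in 3 IgG, 0 IgG+Mino, 1 APB5 and 1 APB5+Mino libraries, so in IgG+Mino against IgG the Xist level and minocycline cannot be told apart. APB5 replicate 3 and APB5+Mino replicate 3 were the libraries with high Xist under APB5. Because of these differences, values without APB5 replicate 3 are given beside the comparisons that include it.

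**Figure D1:**
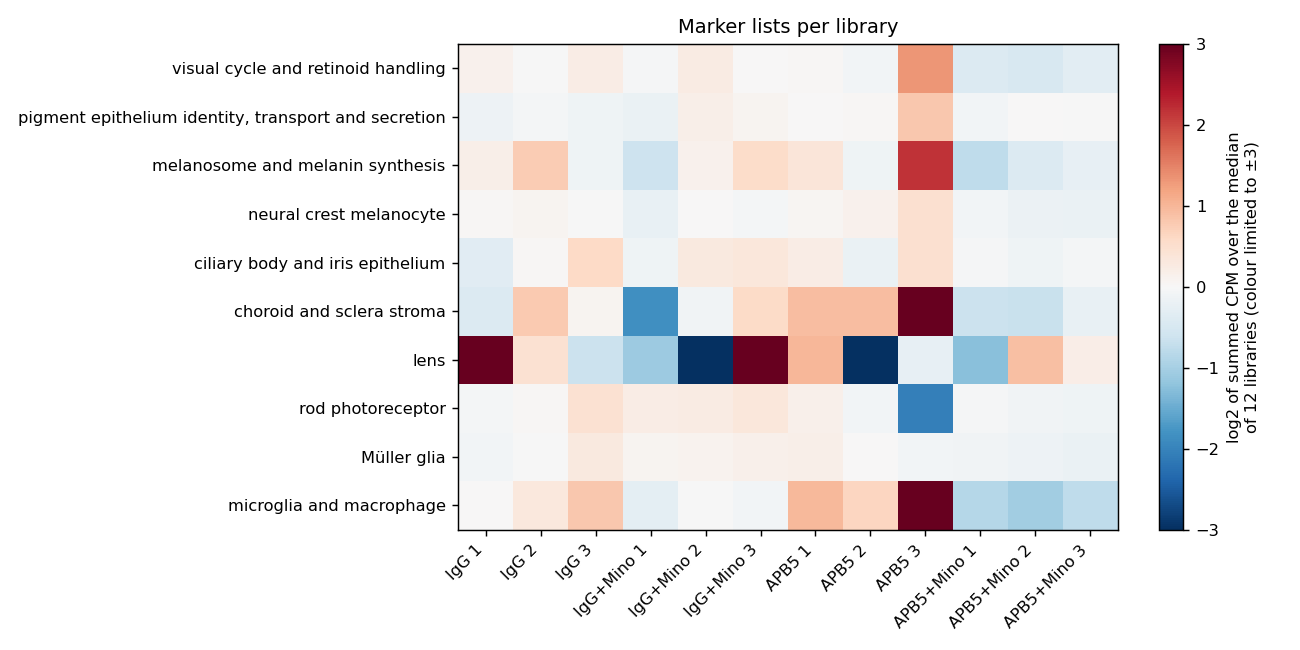
Summed CPM of 10 lists of marker genes (rows) in each of the 12 libraries (columns), as the log2 ratio to the median of the 12 libraries, with colour limited to ±3. APB5 replicate 3 is high in the melanosome, visual cycle, choroid and microglia lists and low in the rod list, and the lens list varies between libraries of every group.

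The regulatory sequence in front of 3 melanin genes, Tyr, Tyrp1 and Dct, is shown because they share a short element there. The 250 bases upstream of the annotated start are given from RefSeq (GRCm38.p6), read 5′ to 3′ on the gene's strand, in lower case. Capitals mark TCATGTG or its reverse complement CACATGA, the core of the M-box, an element that the melanocyte regulator MITF is known to bind. The stretches are chr7:87493513-87493762 on the minus strand for Tyr, chr4:80833963-80834212 on the plus strand for Tyrp1, and chr14:118052247-118052496 on the minus strand for Dct.
Tyr: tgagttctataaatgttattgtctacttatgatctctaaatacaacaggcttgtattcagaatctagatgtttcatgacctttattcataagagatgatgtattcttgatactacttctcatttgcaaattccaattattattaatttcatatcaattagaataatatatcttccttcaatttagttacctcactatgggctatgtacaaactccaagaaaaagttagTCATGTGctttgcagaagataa
Tyrp1: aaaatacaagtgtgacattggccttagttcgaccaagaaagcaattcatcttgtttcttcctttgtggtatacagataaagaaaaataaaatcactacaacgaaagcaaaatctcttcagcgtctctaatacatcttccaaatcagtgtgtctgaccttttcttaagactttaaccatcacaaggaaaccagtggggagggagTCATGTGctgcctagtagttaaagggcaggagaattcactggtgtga
Dct: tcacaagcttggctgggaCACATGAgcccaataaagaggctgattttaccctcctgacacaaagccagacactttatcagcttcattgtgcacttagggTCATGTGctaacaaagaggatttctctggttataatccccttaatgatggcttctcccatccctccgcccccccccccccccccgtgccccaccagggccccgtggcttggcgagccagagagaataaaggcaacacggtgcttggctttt
The element begins 22 bases before the start in Tyr, 47 bases before it in Tyrp1 and 151 bases before it in Dct, where the reverse complement also begins at 232 bases. Of the 10 genes, 7 had an entry in the promoter table, and 3 of these 7 held TCATGTG on either strand, against 3.77% of 32851 promoters, searched for all genes over 250 bases before and 50 bases after the start. The shorter CATGTG, which lies within it, was found in 5 of 7, namely the 3 above, Rpe65 and Rgr, against 14.2% of all promoters. Pmel and Mlana, the other melanin genes, were not among the 7 and were not searched. The element was picked for its link to a melanocyte regulator, so these shares are a description and not a test. A match of letters does not show that a factor binds there, and a link between the element and the levels of these genes was not tested.

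In the mouse annotation (GENCODE M39, GRCm39) Rpe65 lies at chr3:159304802-159330958, Lrat at chr3:82799886-82811288, Rgr at chr14:36756866-36770921 and Best1 at chr19:9962538-9978997. The pigment genes lie at chr7:87073979-87142720 for Tyr, chr4:80752360-80769956 for Tyrp1, chr14:118250202-118289656 for Dct, chr10:128540064-128556107 for Pmel and chr19:29674900-29686034 for Mlana. Counts were given per gene, and the overlaps named next are between whole gene spans, introns included. Pmel overlaps Cdk2 and Dgka on the opposite strand, and Dct, Rgr, Lrat and Ttr each overlap a gene known only by a clone, model or antisense name. One of the 2 genes that overlap Ttr lies on its own strand. The sources used here do not give whether counting used the strand of the reads. The study counted on an NCBI annotation of mm39, which may not hold the same overlapping genes. Reads may be mixed in these 5 genes, and in Ttr also with stranded counting, if the overlapping parts were counted.

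Every gene was detected above the level of 3 counts in every library, and their levels differed widely. Per kilobase of exon, the median level over the 12 libraries was highest for Ttr, at 19.3 CPM per kb, followed by Rgr at 4.98, Dct at 4.80, Pmel at 4.68, Rpe65 at 2.90 and Tyrp1 at 2.73 CPM per kb. Mlana at 1.41 and Lrat at 1.28 CPM per kb came next. Tyr, at 0.312 CPM per kb, and Best1, at 0.128 CPM per kb, were the lowest. Neighbours in this order, such as Rgr, Dct and Pmel, differed by less than their own spread between libraries. Together the 10 genes took between 0.00608% and 0.0217% of all counts in 11 libraries and 0.113% in APB5 replicate 3.

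**Figure D2:**
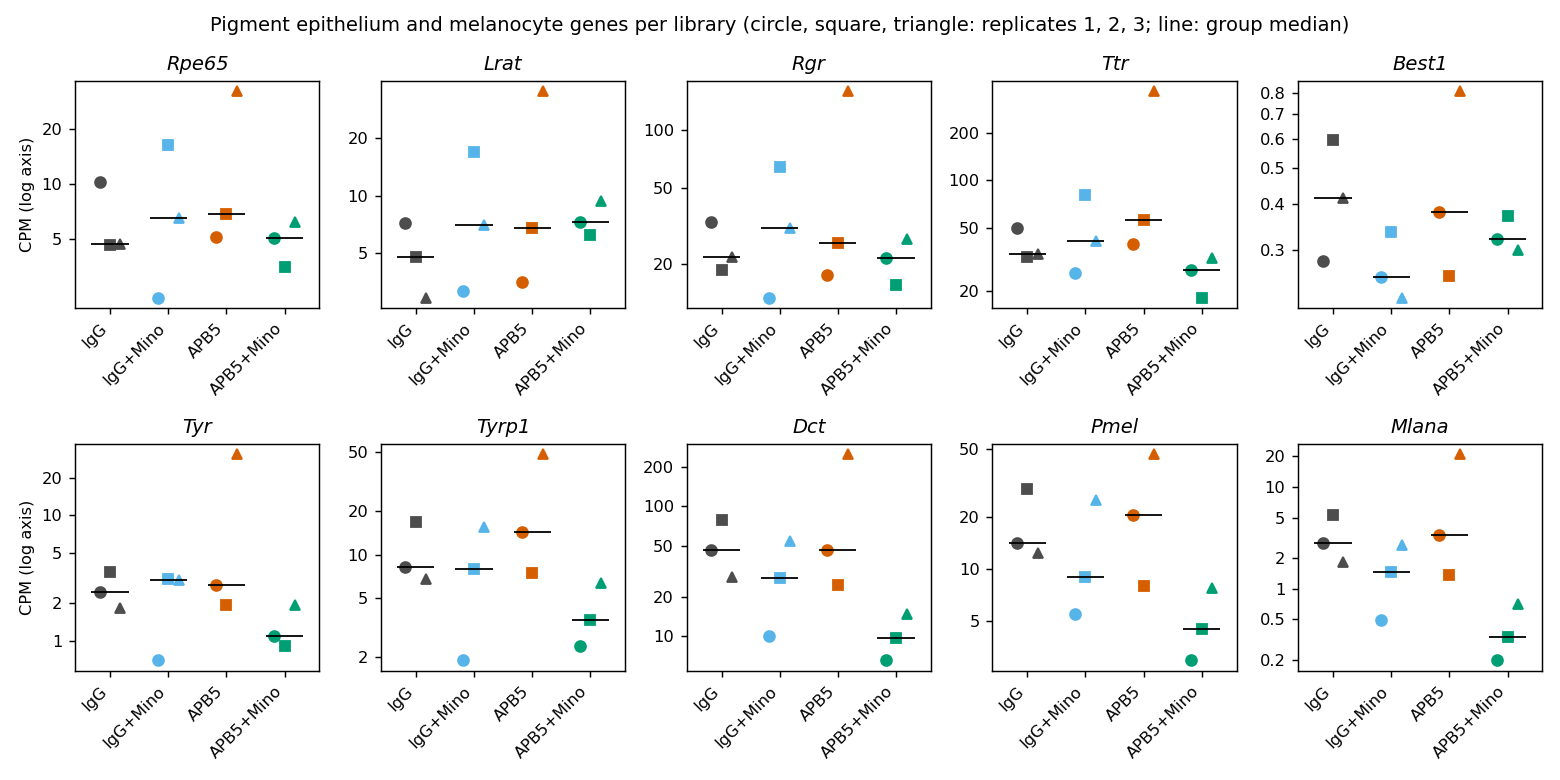
CPM on a log axis of each of the 10 genes in the 12 libraries, with symbols for replicates 1, 2 and 3 and a line at each group's median. APB5 replicate 3 is the highest point in every panel, and the 3 APB5+Mino points lie lowest as a group for Tyrp1, Dct, Pmel and Mlana.

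The visual cycle genes varied between libraries within every group. Rpe65, the isomerase that forms 11-cis retinol, measured 10.2, 4.64 and 4.68 CPM in IgG replicates 1 to 3, 2.37, 16.4 and 6.46 CPM in IgG+Mino, 5.08, 6.86 and 32.2 CPM in APB5, and 5.05, 3.50 and 6.20 CPM in APB5+Mino. The highest Rpe65 value was 13.6 times the lowest, the lowest being IgG+Mino replicate 1, and all 4 groups overlapped. Rgr, an opsin-like protein of the pigment epithelium and Müller glia, measured 33.2, 18.7 and 21.8 CPM in IgG, 13.4, 63.9 and 30.9 CPM in IgG+Mino, 17.6, 25.8 and 159 CPM in APB5, and 21.5, 15.6 and 27.1 CPM in APB5+Mino. Its libraries stood in much the same order as for Rpe65, with APB5 replicate 3 and IgG+Mino replicate 2 on top.

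Lrat, the enzyme that esterifies retinol and so makes the substrate of Rpe65, measured 7.19, 4.81 and 2.94 CPM in IgG, 3.19, 16.9 and 7.00 CPM in IgG+Mino, 3.52, 6.75 and 34.9 CPM in APB5, and 7.25, 6.24 and 9.42 CPM in APB5+Mino. The APB5+Mino libraries were not low in Lrat: 2 of them lay above APB5 replicates 1 and 2. Ttr encodes transthyretin, a carrier of thyroxine, and measured 49.8, 32.6 and 34.2 CPM in IgG, 25.9, 80.3 and 41.1 CPM in IgG+Mino, 39.3, 56.2 and 365 CPM in APB5, and 26.97, 18.1 and 32.3 CPM in APB5+Mino. For Ttr every APB5+Mino library was below every APB5 library. Best1, a chloride channel of the basolateral membrane of the pigment epithelium, was low throughout, from 12 to 54 counts or 0.223 to 0.807 CPM, with APB5 replicate 3 again the highest and the groups overlapping.

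The melanin genes Tyrp1, Dct, Pmel and Mlana were lowest in APB5+Mino and in IgG+Mino replicate 1. Dct, the dopachrome tautomerase of the melanin pathway, measured 45.9, 78.7 and 28.7 CPM in IgG, 10.1, 27.9 and 54.3 CPM in IgG+Mino, 46.3, 24.9 and 254 CPM in APB5, and 6.497, 9.71 and 14.7 CPM in APB5+Mino. The highest APB5+Mino library was below every IgG and every APB5 library, and above IgG+Mino replicate 1 alone. Tyrp1, a melanosomal enzyme related to tyrosinase, measured 8.22, 16.7 and 6.77 CPM in IgG, 1.88, 7.97 and 15.4 CPM in IgG+Mino, 14.2, 7.48 and 48.8 CPM in APB5, and 2.38, 3.54 and 6.34 CPM in APB5+Mino. Its lowest library was IgG+Mino replicate 1, and its APB5 and APB5+Mino libraries did not overlap.

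Pmel, which forms the fibrils on which melanin is laid down, measured 14.2, 29.3 and 12.4 CPM in IgG, 5.48, 9.05 and 25.1 CPM in IgG+Mino, 20.5, 8.01 and 46.5 CPM in APB5, and 2.95, 4.50 and 7.75 CPM in APB5+Mino. The gap between the lowest APB5 and the highest APB5+Mino library was narrow for Pmel. Mlana, a melanosome protein that takes part in the maturation of Pmel, measured 2.82, 5.27 and 1.83 CPM in IgG, 0.489, 1.47 and 2.71 CPM in IgG+Mino, 3.34, 1.37 and 21.1 CPM in APB5, and 0.197, 0.333 and 0.714 CPM in APB5+Mino. It varied most of the 10 genes, by 107-fold between its highest and lowest library, and its APB5+Mino values rested on 11, 17 and 38 counts. Tyr, which encodes tyrosinase, the rate-limiting enzyme of melanin synthesis, measured 2.48, 3.55 and 1.85 CPM in IgG, 0.706, 3.15 and 3.06 CPM in IgG+Mino, 2.80, 1.93 and 30.7 CPM in APB5, and 1.11, 0.920 and 1.96 CPM in APB5+Mino. The highest APB5+Mino library just exceeded APB5 replicate 2 and IgG replicate 3, so for Tyr APB5+Mino overlapped with APB5 and with IgG.

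APB5 replicate 3 held the highest level of all 10 genes. Against the median of the other 11 libraries it was 15.7 times as high for Tyr, 14.4 times for Mlana, 10.7 times for Ttr and 9.09 times for Dct. The ratio was 7.28 for Rgr, 6.51 for Tyrp1, 6.33 for Rpe65, 5.17 for Lrat, 5.14 for Pmel and 2.50 for Best1. The visual cycle and the melanin genes were thus both raised in this library, beside the lower rod and the higher microglia and choroid levels given above, and the part of those levels in this result was not tested. Its microglia list was 15.9 times and its choroid and sclera list 10.1 times the median of the others, and its rod list was 0.237 times that median. The neural crest melanocyte list of 7 genes summed to 1.39 times the median, a sum held mostly by Tfap2a, which was 1.03 times its median. Its other members differed, from Sox10 at 14.5 times and Ednrb at 2.61 times to Kit at 1.47 times and Mc1r at 0.354 times their medians, and Pax3 was at or under 3 counts in every library.

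Apart from that library, the 10 genes did not move as a single set. Rpe65 and Rgr had a Pearson correlation of 0.97 in log2 CPM over 12 libraries (Spearman 0.93) and 0.96 over the 11 libraries without APB5 replicate 3. Among Rpe65, Rgr, Ttr and Lrat the 6 pairwise Pearson values ran from 0.80 to 0.97 over 12 libraries and from 0.50 to 0.96 over 11. Among Tyrp1, Dct, Pmel and Mlana they ran from 0.94 to 0.99 and from 0.91 to 0.99. Between these sets of 4 the 16 values ran from 0.28 to 0.77 over 12 libraries and from -0.19 to 0.53 over 11. Over 11 libraries Ttr was at 0.87 with Rpe65, 0.84 with Rgr and 0.50 with Lrat. With the melanin genes it was at 0.53 for Mlana, 0.52 for Dct, 0.51 for Tyrp1 and 0.38 for Pmel. The sets were drawn after the values had been seen, the libraries include all 4 groups, and genes measured in the same library share its depth and tissue, so these values are a description.

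Tyr followed the melanin genes, at 0.83 to 0.93 with them and 0.72 to 0.92 with the visual cycle genes over 12 libraries. Without APB5 replicate 3 its correlation stayed at 0.83 to 0.94 with the melanin genes and was 0.30 to 0.69 with the visual cycle genes. Best1, at few counts, had Pearson values between -0.24 and 0.29 with all other 9 genes over the 11 libraries.

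**Figure D3:**
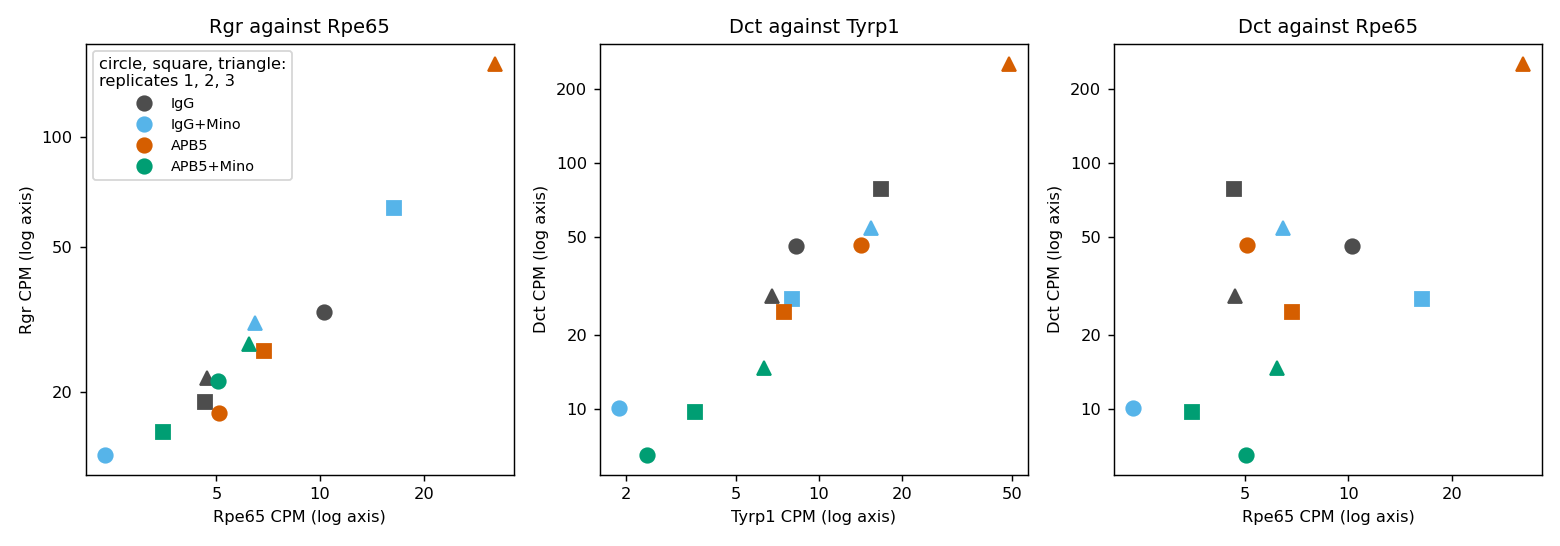
CPM of Rgr against Rpe65, Dct against Tyrp1 and Dct against Rpe65 on log axes, 1 point per library, coloured by group. The first 2 panels are narrow bands, and in the third the libraries spread out, with IgG replicate 2 high in Dct at a low Rpe65 and IgG+Mino replicate 2 the other way round.

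The balance between the sets differed from library to library. The summed counts of Tyrp1, Dct, Pmel and Mlana were 0.708, 2.14 and 0.781 times those of Rpe65, Rgr, Ttr and Lrat in IgG replicates 1 to 3. The ratio was 0.400, 0.261 and 1.14 in IgG+Mino, 1.29, 0.436 and 0.626 in APB5, and 0.198, 0.417 and 0.393 in APB5+Mino. IgG replicate 2 was richest in melanin genes for its visual cycle counts, and the 3 APB5+Mino libraries, with IgG+Mino replicates 1 and 2, were the poorest. APB5 replicate 3, at 0.626, had an intermediate balance although both sums were at their highest, 24765 and 39579 counts.

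Set against Rpe65 within the same library, the count of Rgr kept to a 1.74-fold span over the 12 libraries, Ttr to 2.33-fold and Lrat to 2.84-fold. The melanin genes spanned more, 4.96-fold for Tyr, 7.64-fold for Tyrp1, 11.4-fold for Pmel, 13.2-fold for Dct and 29.1-fold for Mlana. Best1, at few counts, spanned 6.24-fold, which was more than Tyr. Set against Tyrp1, the spans narrowed to 2.41-fold for Dct, 3.05-fold for Pmel, 3.19-fold for Tyr and 5.23-fold for Mlana. They widened to 7.05-fold for Ttr, 8.05-fold for Rgr, 9.34-fold for Best1 and 12.3-fold for Lrat.

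**Figure D4:**
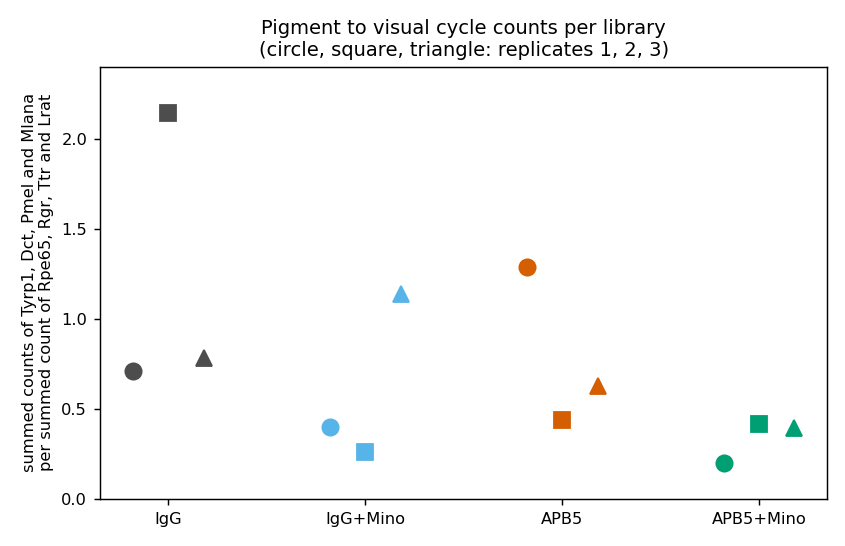
Summed counts of 4 melanin genes per summed count of 4 visual cycle genes, 1 point per library and by group, on a linear axis from 0. The APB5+Mino points lie at 0.198, 0.417 and 0.393, the IgG points between 0.708 and 2.14, and the IgG+Mino points between 0.261 and 1.14.

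Of 15811 genes with a mean of at least 1 CPM, those most like Rpe65 over the 12 libraries were Rgr with a Pearson value of 0.97, the carbonic anhydrase gene Car12 and the potassium channel gene Kcnj13 with 0.95 each, 5930403L14Rik with 0.95 and the paraoxonase gene Pon1 with 0.95. The same 5 genes led without APB5 replicate 3, at 0.90 to 0.96. The 5 most like Tyrp1 were the ferric reductase gene Frrs1 with 0.97, Dct with 0.96, the growth factor receptor gene Fgfr2 with 0.96, Slc24a5, a cation exchanger of pigmented cells, with 0.95, and the fibrillin gene Fbn2 with 0.95. Over 11 libraries Gpnmb, a glycoprotein related to Pmel that macrophages also make, led with 0.98, followed by Frrs1, C330007P06Rik, Gja1 and Tyr. Gpnmb ranged from 5.12 to 30.9 CPM in those 11 libraries and reached 345 CPM in APB5 replicate 3. Kcnj13 ranged from 1.29 to 9.74 CPM and reached 17.7 CPM.

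In APB5 against IgG, which asks what pericyte depletion left in the retina at day 28, all 10 genes had a higher mean in APB5 and none was called. A gene was called when its Benjamini-Hochberg adjusted p from the edgeR quasi-likelihood test was at most 0.05 and its log2 fold change was at least 1 in size. Of 20350 genes tested, 0% were called, and 0 of the 10 genes were called, with 1 of 10 at an unadjusted p under 0.05 (7.23% of all genes). DESeq2 called 0 of the 10 and 0.212% of all genes. The log2 differences ran from 0.18 for Best1 to 2.19 for Tyr with a median of 1.30, beside -0.0024 over all genes, and the edgeR adjusted p ran from 0.664 to 0.929. In a bulk sample, more cells of a type and more RNA per cell cannot be told apart. Tyr averaged 11.8 ± 16.4 CPM in APB5 and 2.63 ± 0.862 CPM in IgG (SD, n = 3 each), and Ttr 154 ± 184 CPM and 38.8 ± 9.52 CPM, so the SD in APB5 was larger than the difference between the means. All 10 genes overlapped between the groups, where 7.79% of all genes were higher in every APB5 than in every IgG library. Without APB5 replicate 3, 7 of the 10 log2 differences turned negative and all lay between -0.52 for Dct and 0.30 for Ttr. The APB5 libraries then left were low in Xist and all IgG libraries high, so antibody and Xist level cannot be told apart in that fit.

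In APB5+Mino against APB5, which asks what minocycline changed after pericyte depletion, all 10 genes had a lower mean with minocycline, and 5 of them did not overlap between the groups. These were Ttr, Tyrp1, Dct, Pmel and Mlana, each lower in every APB5+Mino library than in every APB5 library, as were 22.8% of all genes. In this comparison 1.66% of 20281 genes were called, 0.819% as lower, and 0 of the 10 genes were called. At an unadjusted p under 0.05 there were 6 of 10, namely those 5 and Tyr, against 35.9% of all genes. DESeq2 called 4, namely Tyrp1, Dct, Pmel and Mlana, and 3.26% of all genes.

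The melanin genes Mlana, Dct, Pmel and Tyrp1 had the smallest p of the 10. Mlana averaged 0.415 ± 0.268 CPM in APB5+Mino and 8.60 ± 10.9 CPM in APB5 (SD, n = 3 each), a log2 difference of -4.29 (SE 1.11) with an edgeR adjusted p of 0.0574. Dct averaged 10.3 ± 4.14 CPM and 108 ± 126 CPM, a log2 difference of -3.42 (SE 0.90; edgeR adjusted p = 0.0591). The Pmel means were 5.07 ± 2.45 CPM and 25.0 ± 19.6 CPM, and the log2 difference was -2.32 (SE 0.66; edgeR adjusted p = 0.0663). Tyrp1 gave -2.54 (SE 0.74; edgeR adjusted p = 0.0682) with means of 4.09 ± 2.03 CPM and 23.5 ± 22.1 CPM. The exact (2-sided) permutation test over libraries gave p = 0.1 for each of these 4 genes and for Ttr, the smallest value that 3 against 3 libraries allow.

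The other 6 genes were further from the threshold. Ttr had a log2 difference of -2.60 with an edgeR adjusted p of 0.0857 and Tyr one of -3.15 with 0.0942. The visual cycle genes Rpe65, Rgr and Lrat had log2 differences of -1.60, -1.68 and -1.005 with edgeR adjusted p of 0.151, 0.181 and 0.379. Best1 had -0.52 with 0.41.

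Leaving out APB5 replicate 3 changed the differences of the 10 genes unequally, and the contrast between melanin and visual cycle genes was not tested. Tyrp1 with a log2 difference of -1.41 (edgeR adjusted p = 0.0247), Dct with -1.79 (0.00677), Pmel with -1.49 (0.0305) and Mlana with -2.41 (0.0101) then met the call rule, at smaller differences than with that library. The differences of 3 visual cycle genes were -0.28 for Rpe65, -0.02 for Rgr and 0.56 for Lrat. Ttr, at -0.89, had an edgeR adjusted p of 0.0203 but missed the fold threshold, and Tyr, at -0.82, had 0.0896. In that fit 4.48% of 20621 genes were called, 2.53% as lower. Leaving out APB5 replicate 2 gave 5 calls, these 4 genes and Tyr, where 8.59% of 20832 genes were called, 5.04% as lower. APB5 replicate 2 was the lowest APB5 library for all 5 of these genes, and leaving out such a library favours these calls by construction. Leaving out any other single library gave 0 calls among the 10 genes and at most 1 over all genes.

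The libraries of this comparison can also be split by Xist level. Ttr, Tyrp1, Dct, Pmel and Mlana did not overlap between the groups, so they had to be lower in APB5+Mino in any split. The ratios are therefore a description of size and not a further test. Among the low-Xist libraries, the mean of 2 APB5 libraries was 8.90 times that of 2 APB5+Mino libraries for Mlana, 4.39 times for Dct, 3.83 times for Pmel, 3.66 times for Tyrp1 and 2.33 times for Tyr. In the single high-Xist pair, which includes APB5 replicate 3, the ratios were 29.5, 17.3, 6.002, 7.69 and 15.7. For the visual cycle genes the low-Xist ratio was 2.12 for Ttr, 1.40 for Rpe65, 1.17 for Rgr and 0.762 for Lrat, and the high-Xist ratio was 11.3, 5.18, 5.85 and 3.70.

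The other marker lists moved in the same comparison, and their part in these results was not tested. The summed choroid and sclera stroma genes, 8 genes, lay between 55.8 and 75.4 CPM in APB5+Mino and between 167 and 840 CPM in APB5, and the 10 microglia and macrophage genes between 12.2 and 14.8 CPM and between 39.2 and 394 CPM. Of these, the stroma genes Fmod (log2 difference -2.27, edgeR adjusted p = 0.045) and Fbln1 (-1.47, 0.043) and the microglia gene Cx3cr1 (-3.84, 0.0447) were called lower in the fit that called 0 of the 10 genes. With the replicate block the edgeR adjusted p of each of these 3 was 0.0641, and without APB5 replicate 3 all 3 stayed called, at -1.74, -1.35 and -3.08. These calls were lost when APB5 replicate 1 or any APB5+Mino library was left out. They were also lost with library-size scaling, at an edgeR adjusted p of 0.0502 each. Fbln1 was not called with all 12 libraries in 1 fit (edgeR adjusted p = 0.13) or with the Xist covariate (0.106), where Fmod and Cx3cr1 stayed called. The 10 ciliary body and iris epithelium genes summed to 126 to 135 CPM in APB5+Mino and to 120 to 191 CPM in APB5, so these sums overlapped. In APB5+Mino the sum was held mostly by Aqp1, at 79.6 to 94.4 CPM, which measured 14.5 to 84.1 CPM in APB5. By gene, 9 of the 10 had a negative log2 difference, with a median of -1.59 and 0 called. Without APB5 replicate 3, 8 were negative, with a median of -0.93, and 4 were called lower, among them Tyrp1. The sums of the 8 lens genes overlapped too, with 26.6 to 119 CPM and 3.54 to 127 CPM. The 6 cornea and conjunctiva genes summed to at most 6.74 CPM in any library, with Krt14 at or under 3 counts in all of them.

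**Figure D5:**
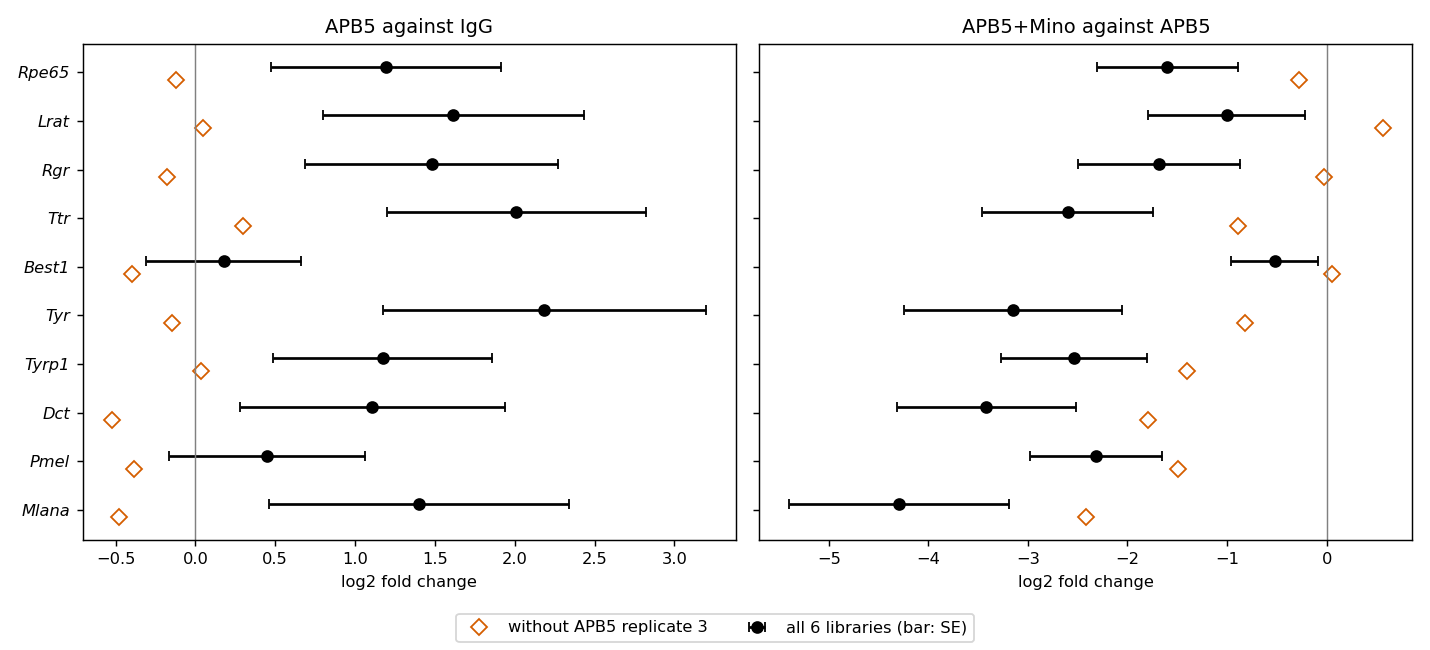
Log2 fold change of each of the 10 genes in APB5 against IgG (left) and APB5+Mino against APB5 (right), from all 6 libraries (filled circles, bars show the SE) and without APB5 replicate 3 (open diamonds). On the left the diamonds lie between -0.52 and 0.30, and on the right they stay below -1 for Tyrp1, Dct, Pmel and Mlana alone.

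In IgG+Mino against IgG, which asks what minocycline did after control IgG, 4 of the 10 genes were higher and 6 lower. Of 20143 genes 0.0298% were called, and 0 of the 10 genes were called, with 0 of 10 at an unadjusted p under 0.05 (8.37% of all genes). DESeq2 called 0 of the 10 and 0.0396% of all genes. Lrat, Rgr, Rpe65 and Ttr had positive log2 differences of 0.85, 0.55, 0.36 and 0.34, and the 5 melanin genes and Best1 had negative ones, down to -1.07 for Mlana. The edgeR adjusted p ran from 0.588 to 0.917. All 10 overlapped between the groups, against 7.35% of genes that were lower in every IgG+Mino library. Within IgG+Mino, replicate 1 had the lowest Rpe65, Rgr, Tyr and Tyrp1 of the 12 libraries and replicate 2 the second highest Rpe65, Rgr, Ttr and Lrat.

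In APB5+Mino against IgG+Mino, which compares the antibodies under minocycline, 9 of the 10 genes were lower with APB5 and Best1 was higher, with a median log2 difference of -0.85 beside -0.0092 over all genes. Of 20049 genes 1.23% were called, and 0 of the 10 genes were called, with 4 of 10 at an unadjusted p under 0.05 (29.3% of all genes). DESeq2 called Mlana alone of the 10, and 0.562% of all genes. Mlana had a log2 difference of -1.81 (SE 0.60; edgeR adjusted p = 0.0861), Dct one of -1.57 (SE 0.51; edgeR adjusted p = 0.0856) and Pmel one of -1.37 (SE 0.53; edgeR adjusted p = 0.125). All 10 overlapped between the groups, against 17.6% of genes that were lower in every APB5+Mino library, and for the melanin genes the overlap came from IgG+Mino replicate 1. Without that library, the lowest of its group for most of the 10 genes, 8 of 10 were called lower, all but Lrat and Best1, where 2.24% of 20477 genes were called, 0.884% as lower. Removing the lowest library of the higher group favours such calls by construction.

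The interaction, which tests whether the minocycline difference was the same under both antibodies, called 0.0141% of 21228 genes and 0 of the 10 genes. At an unadjusted p under 0.05 there were 4 of 10 (17.1% of all genes), and DESeq2 called 0 of 10 (0.76% of all genes). The edgeR log2 values of the interaction were negative for 9 genes, from -1.80 for Pmel to -3.20 for Mlana, and 0.09 for Best1. The edgeR adjusted p ran from 0.197 to 0.942. Without APB5 replicate 3 the interaction values were smaller, at -1.36 for Mlana, -1.07 for Dct and -0.66 for Rpe65, with a median of -0.83 over the 10 genes and 0 of them called by edgeR. A difference between APB5 and IgG retinas in the response of these genes to minocycline was therefore not shown. The interaction also contains IgG+Mino against IgG, where Xist level and minocycline cannot be told apart. The 2 comparisons with APB5+Mino share those libraries, and those with APB5 share APB5 replicate 3.

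The spread between libraries was wide for these genes compared with others. In APB5 against IgG their edgeR dispersion, a squared coefficient of variation beyond counting noise, ran from 0.195 to 0.616 against a median of 0.0636 over all genes, and 89.5% of genes had a lower dispersion than the least variable of the 10. In APB5+Mino against IgG+Mino, where APB5 replicate 3 has no part, they still ran from 0.0446 to 0.261 against 0.0208.

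Other genes of the same pathways were read from 4 lists, which share members with the 10 genes. Of 12 visual cycle and retinoid genes, 11 had a negative log2 difference in APB5+Mino against APB5, with a median of -1.33 beside -0.0205 over all genes, and 0 were called. Without APB5 replicate 3, 6 of the 12 were negative, with a median of 0.00012. Rlbp1, the retinal-binding protein of pigment epithelium and Müller glia, was at -0.51 (edgeR adjusted p = 0.0519), and without APB5 replicate 3 at -0.52 (0.00896), under the fold threshold. In APB5+Mino against IgG+Mino it had an edgeR adjusted p of 0.0156 at a log2 difference of -0.53, which missed the fold threshold. Rlbp1 averaged 261 ± 6.82 CPM in APB5+Mino and 379 ± 25.6 CPM in IgG+Mino (SD, n = 3 each), without overlap.

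Of 18 genes of pigment epithelium identity, transport and secretion, 16 were negative in APB5+Mino against APB5, with a median of -1.21, and 3 were called lower. Cldn19, a tight junction claudin, averaged 1.504 ± 0.105 CPM in APB5+Mino and 4.98 ± 0.165 CPM in APB5 (SD, n = 3 each; log2 difference -1.72, edgeR adjusted p = 0.043), and unlike the 10 genes it was level across the 3 APB5 libraries. Krt18, an epithelial keratin, was at -1.23 (edgeR adjusted p = 0.0461), and Efemp1, a fibulin of the extracellular matrix, at -1.15 (edgeR adjusted p = 0.05). With the replicate numbers as a block, the edgeR adjusted p of each of these 3 was 0.0641 and no gene of the 20281 was called. Without APB5 replicate 3, Cldn19 stayed called at -1.68, and Krt18 at -0.98 and Efemp1 at -0.81 missed the fold threshold. The list then had 13 of 18 negative, a median of -0.20 and 3 called lower, namely Cldn19, Serpinf1 and Krt8. Leaving out APB5 replicate 1 or any of the 3 APB5+Mino libraries ended all 3 calls, with edgeR adjusted p from 0.105 to 0.214. In each of the other 4 comparisons 0 of 18 were called.

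Of 14 melanosome and melanin genes, 13 were negative in APB5+Mino against APB5, with a median of -2.28 and 0 called, and Mlana, Dct and Pmel had the smallest p. Leaving out APB5 replicate 3, 12 were negative, with a median of -0.68, and the 4 called lower were Tyrp1, Dct, Pmel and Mlana. In APB5 against IgG 13 of the 14 were positive, with a median of 1.14 and 0 called, and without APB5 replicate 3 there were 7, with a median of -0.07. Of 7 neural crest melanocyte genes, 6 could be tested, since Pax3 was too low, and 5 were negative in APB5+Mino against APB5, with a median of -0.53 and 0 called. All 6 were negative without APB5 replicate 3, with a median of -0.21, and Mlana alone was called. Sox10, a regulator of neural crest derivatives, averaged 0.185 ± 0.0759 CPM in APB5+Mino and 2.32 ± 3.27 CPM in APB5 (SD, n = 3 each; log2 difference -3.44, edgeR adjusted p = 0.0849), with 5 to 13 counts per APB5+Mino library. The APB5 values were 0.420, 0.434 and 6.10 CPM from the lowest to the highest, and without the highest, APB5 replicate 3, the log2 difference was -1.06 (edgeR adjusted p = 0.0896). Tfap2a, which retinal amacrine cells also express, was at -0.22 (edgeR adjusted p = 0.123).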

How the data were processed

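Raw gene counts, deposited by the authors as whole numbers for 50559 genes in 12 libraries of mouse retina, were used. Per the labels and the study's methods, poly-A RNA was made into stranded libraries, sequenced as short single reads, converted with bcl2fastq 2.20 and counted with DRAGEN against mm39. The DRAGEN version and its strand setting are not given in the sources used here. The 3 repeated count columns were identical to others and were left out, and the authors' tables of fold changes and p-values were not used. Genes passing filterByExpr were fitted with edgeR 4.0.16 (quasi-likelihood, TMM, prior count 2) in R 4.3.3, on the libraries of each comparison, and on all 12 for the interaction. Calls required adjusted p (Benjamini-Hochberg) no higher than 0.05 together with an absolute log2 change of 1 or more. DESeq2 1.42.0, RLE or library-size scaling, no filter, all libraries in 1 fit, an Xist covariate, a replicate block and leaving out each library were alternatives. The members and lists were chosen with earlier results of these data known. Text names the members, called list genes or else the 3 with the smallest p, and the 5 genes most like Rpe65 and Tyrp1. Kcnj13 and Gpnmb levels, the stroma, microglia and Müller glia genes, Aqp1, Serpinf1 and Krt8 were picked out after seeing values. One gene that this rule names is not reported here. Same-numbered libraries deviated together between APB5+Mino and APB5 (correlations 0.134 to 0.182, against -0.157 to 0.0194 for other pairs), with no shared animal or batch stated; in the other comparisons at least 1 same-numbered correlation was below 0.1.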

Additional observations from a re-analysis of the deposited data

How the results depend on the processing

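In APB5+Mino against APB5, the fit described called 0 of the 10 genes (1.66% of all genes tested). All 12 libraries in 1 fit gave 6 calls (7.65%), the Xist covariate 6 (9.05%), DESeq2 4 (3.26%) and no count filter 2 (1.71%). The replicate block gave 0 (0%), and leaving out a single library gave 0 to 5 (0% to 8.59%). At an unadjusted p with the fold threshold there were 6, for which the share over all genes is not given here. In APB5 against IgG the count was 4 with the Xist covariate (Rgr, Ttr, Lrat and Tyr), where 5.57% of all genes were called, and 1 at an unadjusted p. In the interaction it was 5 with the Xist covariate (4.39%) and 4 at an unadjusted p. In APB5+Mino against IgG+Mino it was 3 with the replicate block (1.7%), 3 without the count filter (1.11%) and 3 at an unadjusted p, Dct, Pmel and Mlana each time. DESeq2 called 1 (0.562%), and leaving out a library gave 0 to 8 calls (0% to 2.24%). The cause of these changes was not tested. RLE and library-size scaling changed no call of the 10 genes and turned no direction; with library sizes only, the edgeR adjusted p of Cldn19, Krt18 and Efemp1 was 0.0502, 0.0509 and 0.0543, and Efemp1 was also not called with RLE factors. Over all genes, APB5+Mino against APB5 gave 0 higher and 0 lower calls with the block and 547 higher and 1103 lower by DESeq2, and with library sizes only 0 higher and 5 lower.

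Log2 differences turned in sign under the Xist covariate in IgG+Mino against IgG, to 2.17 for Tyr, 1.17 for Tyrp1, 1.06 for Dct, 0.73 for Pmel and 1.16 for Mlana, where Xist level and group coincide, and in the interaction to -0.44 for Best1. With the replicate block, Lrat turned to 0.048 in APB5+Mino against IgG+Mino. Leaving out 1 library at a time, APB5 against IgG ranged from -0.12 to 1.68 for Rpe65, -0.18 to 1.93 for Rgr, -0.40 to 0.46 for Best1, -0.15 to 2.69 for Tyr, -0.52 to 1.58 for Dct, -0.38 to 0.94 for Pmel and -0.48 to 1.91 for Mlana. APB5+Mino against APB5 ranged from -1.47 to 0.56 for Lrat and -0.80 to 0.0499 for Best1. IgG+Mino against IgG ranged from -0.55 to 0.84 for Rpe65, -0.15 to 0.94 for Rgr, -0.21 to 0.64 for Ttr, -0.47 to 0.23 for Tyr and -1.10 to 0.17 for Tyrp1. APB5+Mino against IgG+Mino ranged from -1.20 to 0.16 for Rpe65 and -0.63 to 0.58 for Lrat, and the interaction from -0.19 to 0.64 for Best1. Groups of 3 libraries limit these results, and Best1, and Mlana under APB5+Mino, also rest on few counts.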
